A study of Mus musculus with 17 samples.

Results

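Accessible chromatin was mapped by ATAC-seq, in which the transposase Tn5 cuts open DNA, in kidney cells of 17 male mice, with 20000 cells per library. Regions were sought that were found in fewer diabetic than healthy mice and were found again after treatment, and 707 such regions are described here, out of 52360 regions found in at least 2 mice. The Ctrl group held wild-type C57BL/6 mice given saline (n = 5). The Case group held diabetic db/db mice (n = 6) of the strain BKS.Cg-Dock7m +/+ Leprdb/J, which lack a working leptin receptor, and these too were given saline. The Dapa group held db/db mice of the same strain (n = 6) gavaged for 6 weeks with 1 mg/kg/day of dapagliflozin, which blocks SGLT2, the main glucose transporter of the early tubule. All mice were 8 weeks old at the start. The mice of the Dapa group keep their numbers 7 to 12. Strain, genotype and diabetes changed together between Ctrl and both db/db groups and cannot be told apart. Case and Dapa differ by the treatment in the labels, which name no batch. The shortest lists were all of Case mice, as given below. The deposited data list, for each mouse, the summits of its peaks, which are the positions of highest accessibility, with a score that ranks them within the mouse.

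The members were chosen by presence alone. Each mouse was represented by its highest-scoring summits, as many as the shortest list held, and windows reaching 250 bp either way from the summits were merged over all mice. A member is a region with a summit in a share of Case mice at least 0.5 lower than in Ctrl mice, and in a share of Dapa mice at least 0.5 higher than in Case mice. Over all regions, 4339 met the first condition (8.29%) and 2051 the second (3.92%). Presence in the 3 groups is therefore a description of how the members were selected, and no test is given for it. A summit that is missing from a list shows that no peak ranked high enough in that mouse, not that the DNA was closed, and in a tissue sample fewer cells of a type cannot be told apart from less accessibility per cell.

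The kidney filters blood in the glomerulus, where podocytes form the filter, and reclaims glucose, salts, amino acids and proteins along the tubule. The proximal tubule does most of this work, takes up glucose through SGLT2, and burns fatty acids for energy. Its gene programme is kept by transcription factors of the HNF1 family and by HNF4A, which bind short DNA motifs in promoters and in distal enhancers. ATAC-seq summits mark such promoters and enhancers.

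The members that came first in size of the differences, and a member at a gene of the kidney cell lists, are shown by the bases around the median position of their summits, on the plus strand of build mm10. Capitals mark motif letters found by the search described further on, on either strand, and a sequence with no capitals holds none of them in this stretch. The first is the promoter of Gimap9, a GTPase of a family used in lymphocytes, the second lies in an intergenic region whose nearest gene is Dmac1, the third is the promoter of Intu, which acts in the formation of cilia, and the fourth lies in an intron of Esrrg, an orphan nuclear receptor of energy metabolism. Acsm2, a medium-chain acyl-CoA synthetase of the proximal tubule, follows.

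Gimap9 promoter, chr6:48675992-48676192: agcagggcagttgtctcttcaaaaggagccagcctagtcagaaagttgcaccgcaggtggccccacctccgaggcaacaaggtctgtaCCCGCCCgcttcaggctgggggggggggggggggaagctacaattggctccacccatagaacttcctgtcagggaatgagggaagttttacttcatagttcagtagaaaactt

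Nearest gene Dmac1, chr4:75234690-75234890: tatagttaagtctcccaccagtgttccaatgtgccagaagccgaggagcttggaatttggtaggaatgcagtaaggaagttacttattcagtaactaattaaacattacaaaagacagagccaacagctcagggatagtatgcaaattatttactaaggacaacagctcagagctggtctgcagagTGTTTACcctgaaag

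Intu promoter, chr3:40540676-40540876: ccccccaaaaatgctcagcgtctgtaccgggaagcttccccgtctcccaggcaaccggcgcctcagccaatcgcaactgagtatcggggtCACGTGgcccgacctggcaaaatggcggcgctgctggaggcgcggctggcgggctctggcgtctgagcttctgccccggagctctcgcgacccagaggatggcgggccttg

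Esrrg intron, chr1:188140314-188140514: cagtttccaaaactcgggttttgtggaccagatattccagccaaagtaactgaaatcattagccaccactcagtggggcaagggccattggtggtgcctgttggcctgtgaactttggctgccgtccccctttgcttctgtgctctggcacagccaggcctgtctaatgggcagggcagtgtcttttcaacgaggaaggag

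Acsm2 promoter, chr7:119561575-119561775: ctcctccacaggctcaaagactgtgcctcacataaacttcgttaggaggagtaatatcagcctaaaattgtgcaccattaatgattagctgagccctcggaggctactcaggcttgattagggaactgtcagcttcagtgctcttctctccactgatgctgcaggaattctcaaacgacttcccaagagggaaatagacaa

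The next 5 sequences show HNF letters within members, with the bases next to them. HNF1 letters are in capitals in the members of Kif21a, Chd6 and Tanc2, and HNF4A letters in those of Pkp4 and Abcb4, the transporter of phosphatidylcholine.

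Kif21a intron, HNF1, chr15:91007522-91007602: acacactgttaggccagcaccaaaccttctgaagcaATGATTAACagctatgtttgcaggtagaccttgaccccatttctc

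Chd6 intron, HNF1, chr2:161049739-161049819: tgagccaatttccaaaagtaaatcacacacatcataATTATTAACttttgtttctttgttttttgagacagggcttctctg

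Nearest gene Tanc2, HNF1, chr11:105574528-105574608: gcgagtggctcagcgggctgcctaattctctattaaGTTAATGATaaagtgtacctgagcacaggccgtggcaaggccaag

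Pkp4 intron, HNF4A, chr2:59186402-59186482: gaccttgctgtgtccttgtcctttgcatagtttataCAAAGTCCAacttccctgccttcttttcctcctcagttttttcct

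Abcb4 promoter, HNF4A, chr5:8893818-8893898: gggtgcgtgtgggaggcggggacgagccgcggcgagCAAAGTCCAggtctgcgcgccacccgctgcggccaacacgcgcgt

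The members were present in most Ctrl and Dapa mice and in a minority of most Case lists, and the Case mice differed widely among themselves. In Ctrl mice 649, 662, 667, 603 and 614 of the members had a summit, in mice 1 to 5, which is 90.4% ± 4.08 (SD, n = 5). In Case mice 1 to 6 the numbers were 222, 93, 48, 84, 315 and 245, or 23.7% ± 15.2 (SD, n = 6). In Dapa mice 7 to 12 they were 619, 483, 521, 502, 625 and 592, or 78.8% ± 8.83 (SD, n = 6). The Case numbers lie below those of the other groups by the choice of members. Within the Case group, Case 5 held the most members and Case 3 the fewest.

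**Figure D1:**
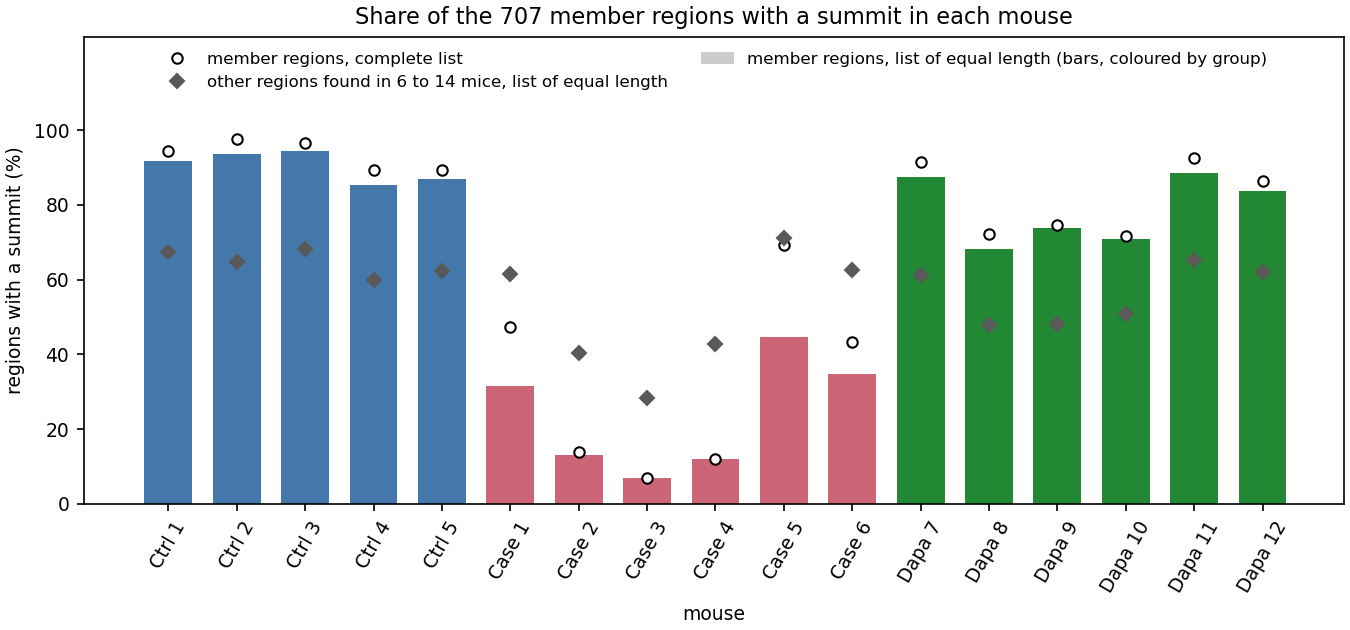
Percentage of the 707 members with a summit in each mouse (bars, lists of equal length), the same with the complete lists (open circles), and the percentage of the 14415 other regions found in as many mice, 6 to 14, with a summit (diamonds). Case 2, Case 3 and Case 4 sit lowest on all 3 measures, and the bars of Case 1, Case 5 and Case 6 rise when the complete lists are used.

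The Case mice with the fewest members were those with the shortest lists. The lists of Case 2 and Case 3 held 31176 and 29845 summits and that of Case 4 was the shortest of all, against 38302 to 51292 in the other Case mice, 37402 to 56659 in Ctrl mice and 32846 to 49442 in Dapa mice. Sequencing depth is unknown and fewer summits are called from shallower libraries. The score at which the equal lists ended was 2.01 to 2.90 in these 3 mice, against 3.11 to 5.53 in the other 14. Other regions found in as many mice as the members were present at 40.5%, 28.4% and 42.8% in Case 2, Case 3 and Case 4, and at 61.5%, 71.1% and 62.7% in Case 1, Case 5 and Case 6. In Ctrl mice such regions were present at 64.6% ± 3.43 (SD, n = 5) and in Dapa mice at 55.9% ± 7.83 (SD, n = 6). The part of list length in the members' pattern was not tested. When only the 12 mice with at least 35000 summits were used (5 Ctrl, 3 Case, 4 Dapa), the same rule gave 766 regions. With fewer Case and Dapa mice a share moves in larger steps, so this number cannot be set against that of the members. How many of the 766 are members is not given here. Leaving out a single mouse gave from 390 regions, without Case 3, to 907, without Ctrl 4, and the number was also more than 1.5 times smaller without Case 2 (449), Case 4 (427), Dapa 7 (471) or Dapa 11 (459). With a mouse left out the steps of a share change, and 528 members had a smaller difference of exactly 0.5. These numbers therefore do not measure the weight of single mice alone.

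Where a member was missing from a list of equal length, a summit of lower rank was in some cases found in the complete list. In Ctrl mice this held for 108 of 340 missing pairs of member and mouse (31.8%) and in Dapa mice for 115 of 900 (12.8%). Of 3235 missing pairs of member and Case mouse, 353 (10.9%) had a lower-ranked summit in the complete list. In Case 5 it was 174 of 392 (44.4%), in Case 1 it was 112 of 485 (23.1%) and in Case 6 it was 62 of 462 (13.4%). In Case 2 it was 5 of 614, and in Case 3 and Case 4 it was 0, but those lists held only 1474, 143 and 0 summits beyond the common length. With complete lists, 500 of the 707 members (70.7%) still met the rule. The members ranked in the middle of the lists, with a median rank per mouse from 13015 to 16424, somewhat lower than the median over all regions of 11092 to 14177.

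The members spread over several patterns. The most frequent was the weakest that the rule admits, with a summit in all 5 Ctrl, 3 of 6 Case and all 6 Dapa mice, in 191 members (27.0%). In 75 of these 191 the Case mice with a summit were Case 1, Case 5 and Case 6. A summit was missing from every Case mouse in 199 members, and 96 of these were missing from every Case mouse in the complete lists too. A summit was found in 1 Case mouse in 200 members and in 2 in 117. All 5 Ctrl mice held 459 members and all 6 Dapa mice held 241. The share of mice with a summit was smaller in Dapa than in Ctrl for 409 members, equal for 239 and larger for 59. At the threshold, 528 members had a smaller difference of exactly 0.5, and 108 regions just outside had 0.467. At least 4 of 6 mice (0.667) separated the groups in both comparisons in 128 members.

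Fisher's exact test of presence, 2-sided, was run over all regions. After Benjamini-Hochberg adjustment 0 regions passed in any comparison, with a smallest adjusted p of 0.136 for Case against Ctrl, 1 for Dapa against Case and 0.178 for Dapa against Ctrl. At an unadjusted p under 0.05, 1063 of the 11407 regions that could reach it were lower in Case than in Ctrl (9.32%), 213 of them members. For Dapa against Case 68 of 7224 were higher in Dapa (0.941%), 33 of them members. These member counts follow from the rule, which used the same presence values, so nothing is read from them. For Dapa against Ctrl the unadjusted count was 860 of 10868 regions in both directions, a count no member could enter, since the rule places each of them in a share of at least 0.5 of both groups.

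The largest differences were those of the Gimap9 promoter (chr6:48675687-48676721). Every Ctrl and Dapa mouse had a summit there and no Case mouse did. Its ranks, where 1 is the highest score, were 21624, 16918, 24892, 18367 and 29131 in Ctrl mice 1 to 5, and in Dapa mice ran from 14127 through a median of 18256 to 24716. Dapa ranks overlapped those of Ctrl. With complete lists 2 Case mice also had a summit here. The other Gimap genes, looked at after these values had been seen, showed no difference of this size. Gimap1 had a summit within 1 kb of a start in all 17 mice, and Gimap5 in 1 Ctrl, 1 Case and 2 Dapa mice. Gimap8 had one in 2 Ctrl, 1 Case and 2 Dapa mice, which leans the same way in few mice. Gimap7 had one in 1 Dapa mouse, and Gimap3, Gimap4 and Gimap6 had none. Cd4, Cd79a and Ptprc had none in any mouse, and Cd3e, Cd8a and Ms4a1 had one in a single Dapa mouse each.

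The next 4 members were present in all 5 Ctrl, 0 Case and 5 Dapa mice. The intergenic region nearest to Dmac1 (chr4:75234475-75235059, 43515 bp from the start of this assembly factor of respiratory complex I) had the highest median rank of the 4 in Ctrl mice, at 6227, 1596, 5133, 11667 and 6093 in Ctrl mice 1 to 5 and from 10420 to 14438 in the 5 Dapa mice that had it. Ctrl ranks overlapped those of Dapa in a single mouse, Ctrl 4. Repeats cover 72.1% of the bases around its summit. It had no summit in any Case mouse even in the complete lists, and was missing from Dapa 8. The Intu promoter (chr3:40540461-40541089) ranked 13217, 4837, 5653, 15404 and 16396 in Ctrl mice and from 4932 to 28338 in Dapa mice, with Dapa 10 missing. The Esrrg intron (chr1:188140128-188140714) ranked 26909, 16090, 26614, 16971 and 27356 in Ctrl mice and from 3603 to 18171 in Dapa mice, with Dapa 10 missing again and none in the complete Case lists. The promoter of Rufy1, an adaptor of endosome traffic (chr11:50430556-50431409), ranked from 13927 to 23624 in Ctrl mice and from 11107 to 21978 in Dapa mice, with Dapa 9 missing. The Case mice had no summit at these 4 regions in the lists of equal length, while in the complete lists 1 Case mouse had one at the Intu promoter and 2 at that of Rufy1. The ranks of Ctrl and Dapa mice overlapped in each.

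**Figure D2:**
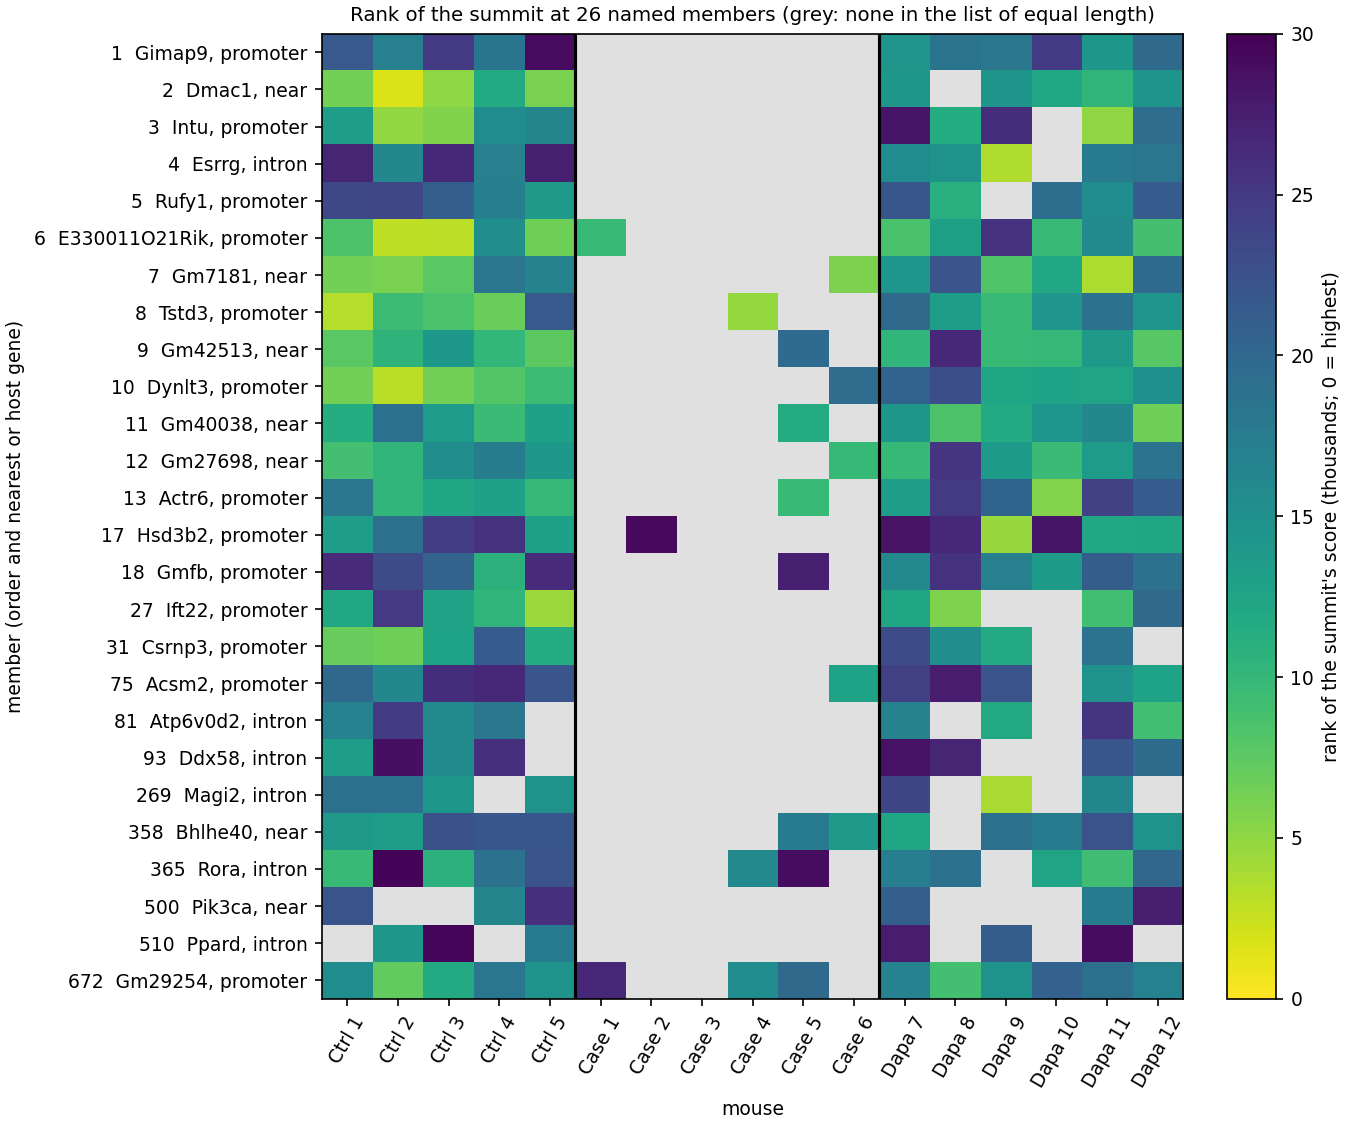
Rank of the summit score (colour, yellow for the highest scores and dark for the lowest) at 26 named members (lines) in each of the 17 mice (columns), with grey where the list of equal length holds no summit. Black lines part Ctrl, Case and Dapa mice, and grey fills most of the Case block by the choice of members, with gaps in single Dapa mice such as Dapa 10.

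Members 6 to 12 in the order of differences had a summit in all 5 Ctrl, 1 Case and all 6 Dapa mice. Which Case mouse held the summit varied, with Case 6 holding it at 3, Case 5 at 2, Case 1 at 1 and Case 4 at 1. They were the promoters of the noncoding gene E330011O21Rik, of Tstd3 and of Dynlt3, a dynein light chain, and 4 intergenic regions, whose nearest protein-coding genes were Gm16223, Pfn2, Pgrmc2 and Smad5 at 22478 to 296348 bp. At the Dynlt3 promoter (chrX:9662680-9663289) the ranks were 6303, 3104, 6348, 8053 and 9472 in Ctrl mice, 19226 in Case 6, and 12258 to 22736 in Dapa mice, so every Ctrl mouse ranked it above every Dapa mouse. Among the first 10 promoters of protein-coding genes, the others were those of Actr6, a subunit of a chromatin remodelling complex, Hsd3b2, a steroid dehydrogenase, Gmfb, the intraflagellar transport gene Ift22, and Csrnp3. Ift22 and Csrnp3 had no summit in any Case mouse, in the complete lists too, and were each missing from 2 Dapa mice. At Ift22 the Ctrl ranks ran from 4532 to 25030 and the Dapa ranks from 5765 to 19630.

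Members at genes of the kidney cell and pathway lists were few. Only 11 members lay in or nearest to a gene of the 14 lists (1.56%), against 1.97% of all regions, so the lists took up no larger share of the members than of the rest. Of the proximal tubule list of 30 genes, 1 of the 156 regions was a member. It was the Acsm2 promoter (chr7:119561257-119562204), present in 5 Ctrl, 1 Case and 5 Dapa mice. It ranked 19832, 15998, 26084, 26621 and 22139 in Ctrl mice, 12619 in Case 6 and from 12653 to 27665 in Dapa mice. Case 6, the single Case mouse with a summit, ranked it above every Ctrl mouse, and with lists cut to 50% of their length the presence difference turned to −0.167, with more Case than Ctrl mice. In the complete lists 3 Case mice had it, too many for the rule. In the collecting duct, an intron of Atp6v0d2, a proton pump subunit, was present in 4 Ctrl, 0 Case and 4 Dapa mice.

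Magi2, a scaffold protein of the podocyte slit diaphragm, held 2 members. One lay in an intron (chr5:20498990-20499604) in 4 Ctrl, 0 Case and 3 Dapa mice. The other was at a promoter, 475 bp from a start of Magi2 and 133 bp from that of the noncoding gene Gm29254, in 5 Ctrl, 3 Case and 6 Dapa mice, and with 4 Case mice in the complete lists it did not meet the rule there. Of interferon genes, an intron of Ddx58, which encodes the RNA sensor RIG-I, was present in 4 Ctrl, 0 Case and 4 Dapa mice, 1008 bp from a start.

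The remaining list members were metabolic and circadian. An intron of Ppard, the fatty acid receptor PPAR-delta, and an intergenic region 4689 bp from the start of Pik3ca, the catalytic subunit of the insulin-responsive lipid kinase, were each present in 3 Ctrl, 0 Case and 3 Dapa mice, the lowest presence the rule admits. In the complete lists the Ppard intron was present in 3 Ctrl, 2 Case and 4 Dapa mice and the Pik3ca region in 5, 1 and 3, and neither met the rule there. The Pik3ca region holds HNF1 letters. A region 5456 bp from the start of Bhlhe40 and an intron of Rora, both regulators of the circadian clock, were each present in 5 Ctrl, 2 Case and 5 Dapa mice. In the complete lists both were in 3 Case mice, and the Rora intron, in 5 Dapa mice, no longer met the rule. No member lay at a gene of the lists for the thick limb and distal convoluted tubule, endothelium, fibroblasts and matrix, leukocytes, inflammation and NF-kB, or tubular injury. These lists take 19 to 56 regions each. No member lay within 10 kb of Isg15, Btla, Csf2rb or Slc5a2, the last of which encodes SGLT2. The study singled out the first 3 from RNA and chromatin of these mice. It reports higher accessibility at Isg15 and Csf2rb in diabetic mice, reduced by treatment, a direction the rule does not select. For Btla it reports the direction of the members, but no equal-length list held a summit within 1 kb of a Btla start. The member nearest to Slc5a2 was 30020 bp from its start, nearest to Armc5.

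The members were spread over promoters, introns and intergenic DNA much as all regions were, and fewer of them were made mostly of repeats. Within 1 kb of a transcription start lay 212 (30.0%) against 32.2% of all regions, in introns 250 (35.4%) against 33.2%, in exons 29 (4.10%) against 3.85%, and between genes 216 (30.6%) against 30.7%. Median GC was 48.3% against 51.3%. Regions made mostly of repeats were 3.11% of the members against 12.8%, and 21 members (2.97%) had a further near-identical copy in the genome against 14.2%. Against the 14415 other regions found in as many mice these gaps were smaller, at 7.03% mostly repeat and 7.87% with copies, and the median share of repeat bases was 9.18% in both sets. The 458 regions of the opposite pattern, found in more Case than Ctrl mice and in fewer Dapa mice, were mostly repeat in 40.2% and had copies in 44.1%, with 15.7% at promoters. Members missing from every Case mouse were at promoters in 21.1% (42 of 199), and those found in 3 Case mice in 39.3% (75 of 191).

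The members lay on all chromosomes with regions, and few were neighbours. The X chromosome gave 23 members of its 850 regions (2.71%) and chromosome 3 gave 57 of 2639 (2.16%), whereas chromosome 11 gave 28 of 3533 (0.793%), against 1.35% over all. Only 39 members lay within 100 kb of the next. In the annotated body of Zfp697 on chromosome 3, which spans a cluster of Hsd3b genes, lay 3 members, namely the Hsd3b2 promoter (chr3:98723710-98724893), a promoter of Gm4450 (chr3:98456886-98457432) and an intron (chr3:98681936-98682802). They were present in 5, 4 and 3 Ctrl mice, in 1, 1 and 0 Case mice, and in 6, 4 and 3 Dapa mice. The last 2 hold HNF1 letters, and both have further copies in the genome, between which reads may have been split. These were singled out after their positions had been seen.

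Motif letters were searched in the bases up to 250 bp to each side of the median summit, on both strands, and a match is a description of the sequence and not a binding site. The letters were GTTAATNAT for HNF1, CAAAGTCCA for HNF4A, TGANTCA for AP-1, AGGGGGC for the core of the CTCF motif, CCGGAAG for ETS factors and GGGCGGG for the GC box, and 9 others were counted. HNF1 letters lay in 59 of 707 members, 8.35% (95% Wilson interval 6.52 to 10.6), against 3.31% of all regions and 4.22% of the other regions found in as many mice. HNF4A letters lay in 32 members, 4.53% (3.22 to 6.32), against 2.39% and 3.42%. Either was found in 89 members and both in 2. The intervals cover counting error only and take the regions as independent. Regions lower in Case and not regained in Dapa, of which there were 2144, held HNF1 letters in 8.02% and HNF4A letters in 3.92%, close to the members, and the 458 of the opposite pattern held each in 0.655%.

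The HNF1 letters were most frequent in the members away from promoters. They lay in 32 of 250 intronic members (12.8%, against 4.81% of all intronic regions), in 20 of 216 intergenic members (9.26% against 3.71%) and in 7 of 212 at promoters (3.30% against 1.41%). HNF4A letters lay in 5.60%, 4.63% and 2.83% of these, against 3.09%, 2.71% and 1.24%. They clustered at the summit. Of the members with HNF1 letters 64.4% had them within 50 bp of it, with a median distance of 37 bp, and over all regions it was 56.6%. For HNF4A it was 59.4% and 58.5%. A band of that width takes 20.2% of the window, and AP-1 letters lay in it in 26.1% of the members that hold them.

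**Figure D3:**
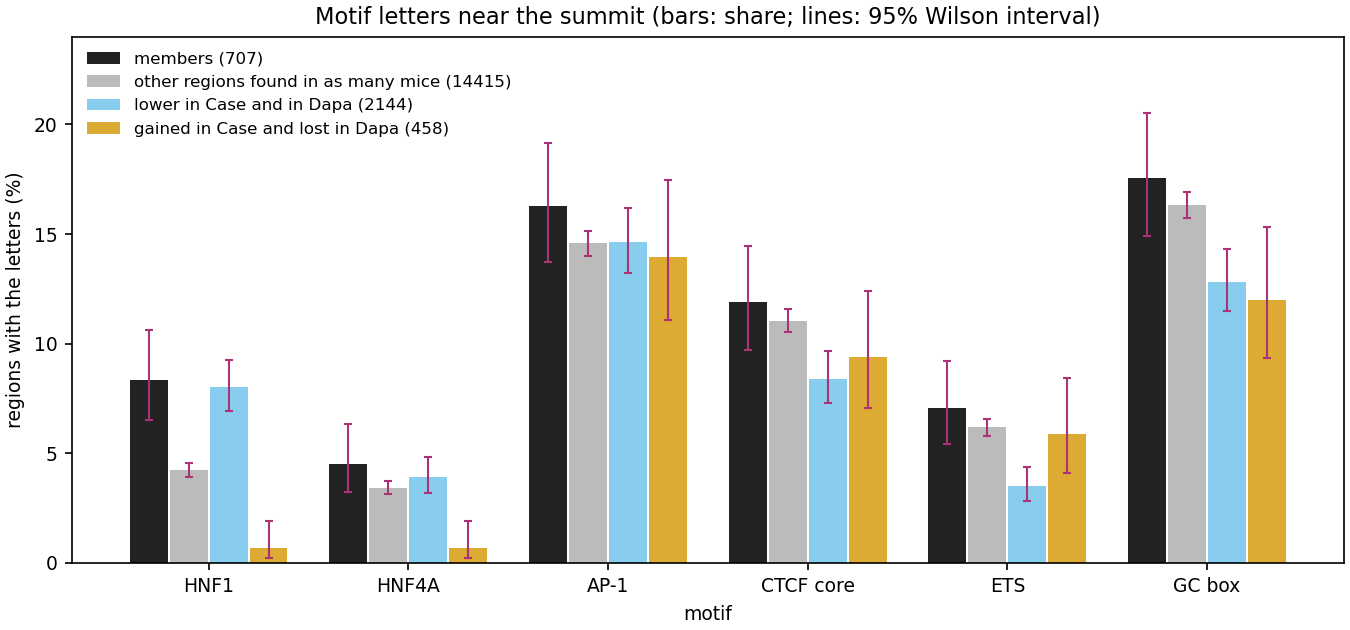
Percentage of regions with each motif's letters up to 250 bp from the summit (bars) with 95% Wilson intervals (lines), for the 707 members, the 14415 other regions found in as many mice, the 2144 regions lower in both db/db groups and the 458 of the opposite pattern. HNF1 letters stand at 8.35% of the members and 8.02% of the regions not regained, against 4.22% and 0.655% in the other sets.

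The other motifs were counted in the same way, with the share of members first and that of all regions second. AP-1 letters lay in 16.3% against 13.6%, those of ETS factors in 7.07% against 7.78%, the CTCF core in 11.9% against 12.1%, the GC box in 17.5% against 20.04%, C/EBP letters (TTGCNNAA) in 20.5% against 18.2%, FOX letters (TGTTTAC) in 6.65% against 5.69%, NF-Y letters (CCAATCA) in 8.49% against 7.14% and the E-box (CACGTG) in 10.7% against 9.57%. The letters of NF-kB (GGANTTTCC) lay in 2.12% against 2.13%, of IRF factors (GAAACNGAA) in 3.11% against 3.04%, of PPAR-RXR (GGTCANAGG) in 3.11% against 3.58%, of ESRR (TCAAGGTCA) in 0.566% against 0.951% and of NRF2 (TGACTCAGC, which holds AP-1 letters within it) in 0.566% against 1.17%. Of the 15 motifs 8 had a higher share in the members than in all regions, and 11 a higher share than in the other regions found in as many mice. The GC box (16.3% in those regions), ETS (6.17%) and the CTCF core (11.1%) were lower in the members against the first reference and higher against the second.

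The share with HNF1 letters was 10.1% (interval 6.60 to 15.0) in the 199 members missing from every Case mouse and 6.81% (4.02 to 11.3) in the 191 found in 3, and these intervals overlap. Presence of the members with HNF1 letters varied between mice of a group. In Ctrl mice 48 to 56 of the 59 had a summit. In Case mice 1 to 6 it was 17, 10, 1, 3, 26 and 15, with Case 3 and Case 4 lowest, and in Dapa mice 7 to 12 it was 51, 32, 40, 41, 57 and 45. In percent the Case values were 28.8, 16.9, 1.69, 5.08, 44.1 and 25.4. Members without the letters stood at 31.6%, 12.8%, 7.25%, 12.5%, 44.6% and 35.5%, with Case 3 and Case 4 lowest there too. Of the 32 with HNF4A letters, Ctrl mice held 27 to 31, Case mice 0 to 16 and Dapa mice 22 to 31.

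**Figure D4:**
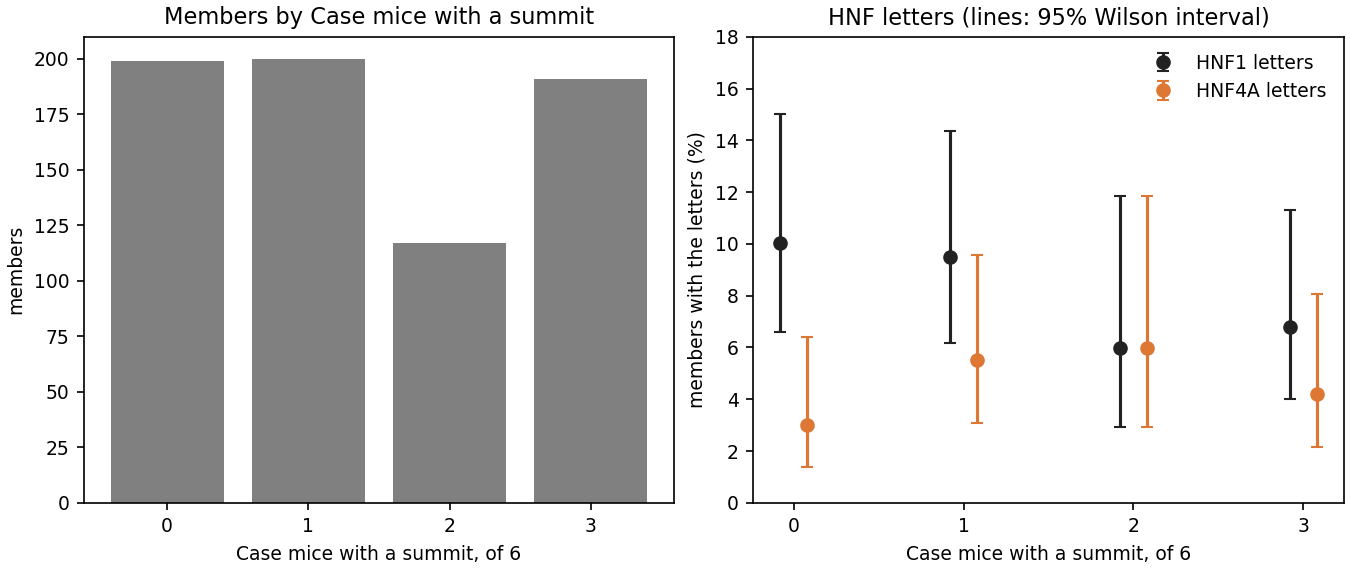
Number of members by the number of Case mice with a summit, 0 to 3 of 6 (left), and the percentage of these members with HNF1 or HNF4A letters, with 95% Wilson intervals (right). The members fall into 199, 200, 117 and 191, and the intervals of the HNF shares overlap across them.

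The same letters were also counted in the summits outside the members. Presence in these mice decided which regions were taken out, namely those lower in Case and regained in Dapa, so what is left is not independent of the rule, least of all for Dapa against Case. For each mouse the share of such summits with the letters was computed, for 6 motifs and GC, and compared between groups by exact permutation tests, 2-sided, with adjustment over all 21 tests. The smallest p that the design allows is 0.00216 in each comparison. None of the 21 passed after adjustment. The HNF1 share outside the members was 3.89%, 4.26%, 4.26%, 3.16% and 3.40% in Ctrl mice 1 to 5, with a mean of 3.79% ± 0.4997 (SD, n = 5). In Case mice it ran from 1.18% through a median of 2.58% to 3.16%, with a mean of 2.42% ± 0.773 (SD, n = 6). In Dapa mice it ran from 2.05% through 2.82% to 3.34%, with a mean of 2.77% ± 0.466 (SD, n = 6).

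The lowest Ctrl value, of 3.163% in Ctrl 4, lay just above the highest Case value, of 3.158% in Case 5, so these groups did not overlap. For Case minus Ctrl the means were −1.37 points apart (p = 0.00866 by the exact permutation test, adjusted 0.0606). Dapa mice differed from Ctrl by −1.02 (exact permutation p = 0.00866, adjusted 0.0606), with 5 of 6 below every Ctrl mouse. In the mice with at least 35000 summits, which leaves out Case 2, 3 and 4 and Dapa 9 and 10, Case minus Ctrl was smaller, at −0.741 (exact permutation p = 0.0357, adjusted 0.15), and with the lists cut to 50% of their length Dapa minus Ctrl was −0.622 (exact permutation p = 0.0108, adjusted 0.0758). Without Case 3 or Case 5 both differences from Ctrl passed, and without Dapa 8 that of Case did (adjusted p of the exact permutation test 0.0455 each), with differences of −1.12, −1.52 and −1.37 for Case. For Dapa minus Case it was 0.346 (p = 0.387 by the exact permutation test, adjusted 0.581), and these groups overlapped. It fell to 0.0984 without Case 3 and was −0.182 in the mice with at least 35000 summits. With the summits inside the members counted too, the HNF1 difference was −1.44 for Case minus Ctrl and 0.416 for Dapa minus Case. The rule used those summits to choose the members, so no test is read from these 2 values.

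For HNF4A the mean of the Ctrl mice was 2.62% ± 0.284 (SD, n = 5), that of the Case mice 1.97% ± 0.575 (SD, n = 6) and that of the Dapa mice 2.25% ± 0.351 (SD, n = 6). Case minus Ctrl came to −0.647 points (p = 0.0433 by the exact permutation test, adjusted 0.182), and both groups overlapped. The difference was −0.182 in the mice with at least 35000 summits (exact permutation p = 0.321, adjusted 0.614) and −0.365 with the lists cut to 50% of their length (exact permutation p = 0.171, adjusted 0.449). The GC box, a letter pattern of promoters, stood at 28.2% ± 0.223 (SD, n = 5) for Ctrl, at 26.4% ± 0.681 (SD, n = 6) for Case and at 26.5% ± 1.23 (SD, n = 6) for Dapa. Each of the 6 Case mice lay below every Ctrl mouse (difference −1.80, exact permutation p = 0.00433, adjusted 0.0606), as did 5 of 6 Dapa mice (difference −1.74, exact permutation p = 0.0216, adjusted 0.114). In the mice with at least 35000 summits the difference of Dapa was −1.13 (adjusted p of the exact permutation test 0.15), and with the lists cut to 50% those of Case and Dapa were −2.78 and −2.92 (adjusted p of the exact permutation test 0.0227 and 0.0909). Without Case 3, Case 5 or Dapa 8 the difference of Case passed as well (−1.83, −1.97 and −1.80, adjusted p of the exact permutation test 0.0455 each), and without Dapa 8 that of Dapa (−2.11, adjusted 0.0455). With all summits in place of equal lists the GC box difference between Case and Ctrl turned to 1.69 (exact permutation p = 0.325, adjusted 0.551). That of Dapa minus Ctrl turned to 0.134 (exact permutation p = 0.911, adjusted 0.911). The AP-1, CTCF core, ETS and GC values had adjusted p from 0.201 to 0.926 in the 3 comparisons, and of these the ETS difference of Case passed without Case 3 (−0.437), that of Dapa without Dapa 8 (−0.558) and the CTCF core difference of Case without Case 5 (−0.709), each at an adjusted p of 0.0455.

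**Figure D5:**
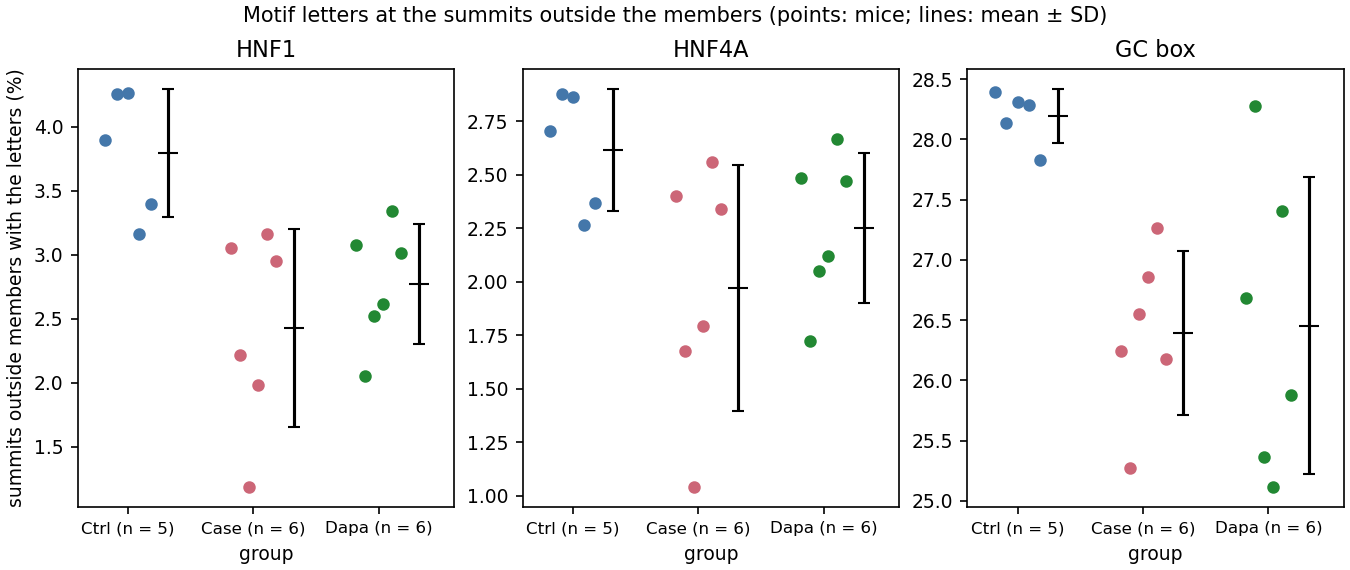
Percentage of the summits outside the members with HNF1, HNF4A or GC box letters in each mouse (points) with the group mean ± SD (lines), for 5 Ctrl, 6 Case and 6 Dapa mice; the axes do not start at 0. In the HNF1 panel the lowest Ctrl mouse, at 3.163%, lies just above the highest Case mouse, at 3.158%, and the Dapa mice lie at 2.05% to 3.34%.

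The labelled tissue was checked by marker genes, without a test between groups. Only the proximal tubule list kept all Case mice apart from all Ctrl mice. Of the 30 proximal tubule genes 82.7% ± 5.48 had a summit within 1 kb of a start among Ctrl mice (SD, n = 5), 66.7% ± 8.16 among Case mice (SD, n = 6, 53.3% to 73.3%) and 74.4% ± 6.55 among Dapa mice (SD, n = 6, 66.7% to 83.3%). Case mice did not overlap Ctrl mice (76.7% to 90.0%), and Dapa mice overlapped both. The share of all regions with a summit was also lowest in Case mice, with means of 51.2%, 45.2% and 47.6% in Ctrl, Case and Dapa mice. On the proximal tubule list the lowest Case values were those of Case 3 (53.3%) and Case 2 (60%), which had short lists. Case 4, with the shortest list, had 70%. The leukocyte list of 26 genes had none in any Ctrl mouse, 0% to 26.9% in Case mice and 0% to 7.69% in Dapa mice, and Case 3, with the fewest members, had the highest value. The podocyte list had 35.7% to 50.0%, 28.6% to 57.1% and 28.6% to 50.0%, the collecting duct list 15.8% to 36.8%, 15.8% to 36.8% and 21.1% to 36.8%, the thick limb and distal convoluted tubule list 38.9%, 22.2% to 44.4% and 22.2% to 44.4%, the endothelial list 12.5% to 18.8%, 0% to 18.8% and 6.25% to 12.5%, and the fibroblast and matrix list 30.0% to 45.0%, 20% to 55.0% and 20% to 40%, in Ctrl, Case and Dapa mice. The part of these markers in the members' pattern was not tested.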

How the data were processed

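Kidney ATAC-seq libraries of 17 mice were analysed from summit lists, 1 list per mouse. According to the labels and the study's methods, the authors used the ENCODE pipeline with Bowtie2 and mm10, dropped duplicate reads and reads in blacklisted regions, shifted reads for the Tn5 offset and ran MACS2 on each library. DiffBind and HOMER are also named. The deposited score is a −log10 value from MACS2. Whether of p or of q is not given in the sources used here. It was used only to rank summits within a mouse. Read totals were not used here, so depth is unknown.

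Summits on the 19 autosomes, X and Y were taken, and equal scores at the end of a list (up to 4351 summits in a mouse) kept their file order. Positions were annotated with GENCODE M21 (55413 genes), a promoter being within 1 kb of a start. Sequence and repeats came from the RefSeq GRCm38.p6 genome, the same build as mm10. Copies were BLAST 2.17.0 matches of at least 95% identity over at least 80% of a region. No pair of the 136 pairs of libraries shared more than 0.797% of summit positions. Groups came from the labels, which name no batch and do not say beyond the mouse number whether libraries are separate animals, so p-values measure the spread between these libraries.

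Values per mouse were compared by exact permutation tests and presence by Fisher's exact test, with Benjamini-Hochberg adjustment and a threshold of 0.05 (Python 3.11.15, numpy 2.4.6, pandas 2.3.3, scipy 1.17.1, statsmodels 0.14.6), after the code had been tested on simulated data. Named were the first 12 members by the smaller difference, the sum of both and mean rank, the first 10 at promoters of protein-coding genes, the first 2 for each of 14 gene lists, and 4 candidate genes, and 1 named member is not reported here. The members, lists and tests were chosen with earlier results of these data known. The alternatives were shorter or complete lists, a score of at least 5, summits extended by 100 or 500 bp, presence in 3 or more mice, a difference of 0.67, autosomes only, no further copy, a promoter distance of 3 kb, a narrower motif window, adjustment over all regions, same-numbered mice as pairs and each mouse left out. After seeing the data, keeping all tied summits, using only mice with at least 35000 summits and counting motifs with the members included were added.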

Additional observations from a re-analysis of the deposited data

Results flagged for a closer look

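Over 60 sets of values, 1 for each measure and group, 3 held a mouse far from the others of its group, and chance alone gives about 1 in 20, or 3. The mean GC of summits outside the members was 55.3% in Dapa 8, against 53.7% to 54.3% in the other Dapa mice, and Dapa 8 was also the Dapa mouse with the fewest members. None of the endothelial marker genes had a summit near a start in Case 4 (0%), against 12.5% to 18.8% in the other Case mice. Of the leukocyte marker genes 26.9% had one in Case 3, the mouse with the fewest members, against 0% to 7.69% in the other Case mice. Their part in the members' pattern was not tested.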

How the results depend on the processing

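The HNF1 share of the members was 6.53% to 8.66% under the alternatives to the lists, regions, copies and motif window, and 6.10% (without Dapa 11) to 9.08% with a mouse left out. The number of members was 311 with lists cut to 50% of their length and 26 at a difference of 0.67, which a difference of 4 of 6 mice just misses (128 members had at least that in both comparisons), and 678 to 973 under the other alternatives that could change it, and 390 to 907 with a mouse left out. Their promoter share was 41.2% with a distance of 3 kb, 41.2% with the shorter lists, 37.0% with scores of at least 5, 34.6% at a difference of 0.67, 35.0% in the mice with at least 35000 summits, and 26.6% to 36.3% with a mouse left out. Of 292 values of the 27 named members under these alternatives 246 kept the rule, 45 did not, and 1, the Acsm2 promoter with the shorter lists, turned to −0.167. The cause was not tested.

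Outside the members, differences are in percentage points, from the same exact permutation tests. With the shorter lists GC turned to −0.0643 (Case minus Ctrl) and −0.329 (Dapa minus Ctrl), the CTCF core to 0.104 (Dapa minus Ctrl), ETS to 0.227 and the GC box to −0.141 (Dapa minus Case), while AP-1 (0.795, Dapa minus Ctrl) and the GC box (−2.78, Case minus Ctrl) passed. With all summits AP-1 turned to −0.203, the CTCF core to 0.457, ETS to 0.885 and the GC box to 1.69 (Case minus Ctrl), the CTCF core to −0.194 and the GC box to −1.56 (Dapa minus Case), and the CTCF core to 0.263, ETS to 0.2515 and the GC box to 0.134 (Dapa minus Ctrl). With a motif window of 100 bp to each side HNF1 (−1.24), ETS (−0.525) and the GC box (−2.11) passed for Case minus Ctrl and the GC box (−1.86) for Dapa minus Ctrl, while GC turned to −0.108 (Dapa minus Ctrl) and ETS to 0.155 (Dapa minus Case). In the mice with at least 35000 summits, HNF1 turned to −0.182, HNF4A to −0.0974, GC to 0.197 and ETS to 0.125 (Dapa minus Case), and the CTCF core to 0.156 (Dapa minus Ctrl). With the summits inside the members included, HNF1 was −1.44 and the GC box −1.61 for Case minus Ctrl, and the GC box turned to −0.0589 (Dapa minus Case). The rule used those summits, so no test is read from these values.

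With a mouse left out, Case minus Ctrl ran from −1.53 to −1.12 for HNF1, −1.97 to −1.58 for the GC box, −0.437 to −0.222 for ETS, −0.709 to −0.303 for the CTCF core and −0.204 to 0.338 for AP-1. Dapa minus Ctrl ran from −1.18 to −0.880 for HNF1, −2.11 to −1.47 for the GC box, −0.558 to −0.343 for ETS and −0.0880 to 0.234 for GC. Dapa minus Case ran from −0.307 to 0.326 for the GC box and −0.221 to 0.0217 for ETS. Regions with an unadjusted Fisher p under 0.05 numbered 1162 to 2127 (Case against Ctrl), 85 to 270 (Dapa against Case) and 860 to 1705 (Dapa against Ctrl), and 0 passed adjustment with any mouse left out or with all regions adjusted.

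Same-numbered Ctrl and Case mice share only a number, and their deviations correlated from −0.801 to 0.620. With the number as a block the HNF1 difference was −1.48 (exact sign-flip permutation p = 0.0625, the smallest that 5 pairs allow, so that no value could pass).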
